A study of Mus musculus with 11 samples.

Results

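Transcript levels of 7 genes were examined: the topoisomerases Top1, Top2a, Top2b, Top3a and Top3b, and Tdp1 and Tdp2, which clear topoisomerase remnants from DNA. They were chosen by symbol from the 53700 genes of a count table, and all 7 of 7 passed the filter on low counts that left 16639 genes for testing. The cells were short-term haematopoietic stem cells (ST-HSC) sorted by flow cytometry from bone marrow of mice labelled C57BL/6j and sequenced in bulk. All hosts carried transplanted bone marrow of a mouse leukaemia (AML) with Flt3-ITD, an activating duplication in a receptor kinase gene, and a knockout of Tet2, a DNA demethylation enzyme. The 11 libraries fell into 4 groups. KO treated (257, 263 and 276; Cre_pos) came from CXCL12 KO hosts given cytarabine, doxorubicin and quizartinib, and WT treated (252, 262 and 266; Cre_neg) from CXCL12 WT hosts given the same combination. KO vehicle (249 and 275; Cre_pos) and WT vehicle (240, 253 and 265; Cre_neg) were the matching hosts given vehicle. CXCL12 is a chemokine by which marrow stroma holds stem cells, and by the series title its deletion lay in the microenvironment. The Cre driver, doses, times, ages and whether each library came from a separate animal are not given in the sources used here, so a p-value here reflects spread among libraries that may be technical, and the effect of Cre itself cannot be told apart from that of the deletion.

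Topoisomerases undo the twists and tangles that copying, transcription and division put into DNA, by cutting it, passing strands and sealing it again. Type I enzymes (Top1, Top3a, Top3b) cut a single strand and type II enzymes (Top2a, Top2b) cut both. While DNA is cut, the enzyme is covalently bound to the broken end, and doxorubicin, an anthracycline, acts in part by trapping type II enzymes in that state. Tdp1 chiefly removes remnants of Top1 from DNA ends, and Tdp2 remnants of the type II enzymes. In blood-forming tissue Top2a is the type II enzyme of dividing cells, whereas Top2b is also made by cells at rest.

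The promoters of the 2 type II genes are shown since these encode the targets of doxorubicin in the treatment. Each runs from 250 bases before to 50 after the annotated start (RefSeq, GRCm38.p6), at chr11:99024140-99024439 on the minus strand for Top2a and at chr14:16364956-16365255 on the plus strand for Top2b. Capitals mark CCAAT on either strand, the core of the sites of the factor NF-Y, which is known from promoters of mitotic genes.
Top2a: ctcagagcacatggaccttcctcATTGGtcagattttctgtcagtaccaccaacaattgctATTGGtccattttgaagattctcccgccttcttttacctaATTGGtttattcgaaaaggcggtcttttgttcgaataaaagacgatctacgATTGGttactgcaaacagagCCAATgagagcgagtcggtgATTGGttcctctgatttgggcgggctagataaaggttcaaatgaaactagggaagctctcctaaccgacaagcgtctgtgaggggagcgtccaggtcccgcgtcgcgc
Top2b: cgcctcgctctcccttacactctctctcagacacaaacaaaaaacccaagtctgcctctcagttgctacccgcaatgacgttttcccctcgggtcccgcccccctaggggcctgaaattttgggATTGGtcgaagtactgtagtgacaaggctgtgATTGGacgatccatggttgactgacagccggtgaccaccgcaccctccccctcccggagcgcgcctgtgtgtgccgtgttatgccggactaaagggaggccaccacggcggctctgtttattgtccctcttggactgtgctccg
The Top2a window held 6 copies of CCAAT and the Top2b window 2. Of 32851 promoter windows of this length, 37.4% held at least 1 copy, 11.7% at least 2 and 0.271% at least 5. A search of both strands for an element found in promoters of cell cycle genes gave 2 copies of the form TTTGAA in the Top2a window; 2.31% of windows held at least 2. The form TTCGAA, which reads the same on both strands, was also there in 2 copies, and 0.0304% of windows held at least 2. None of these overlapped a CCAAT, and the Top2b window held neither form. Of the other members with a window, Top3b had 1 CCAAT and neither form of the cell cycle element, Tdp1 had no CCAAT and 1 TTTGAA, and Top1 had none of these. These matches describe the sequence only.

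The libraries held 8129032 to 31061919 gene counts, and the members' counts ran from 116 to 13194 in a library. WT vehicle 253 and 265 lay apart from the other 9 libraries on the first 2 principal components (31.8% and 16.9% of the variance). Replicates correlated (Pearson r across genes) at 0.87 to 0.93 in KO treated, 0.92 to 0.96 in WT treated, 0.91 in KO vehicle and 0.80 to 0.84 in WT vehicle libraries. Across 16586 genes, which are not independent replicates, the Spearman rho between relative expression and transcript length was -0.22, 0.35 and 0.36 for KO treated and -0.29, -0.40 and -0.34 for WT treated libraries. The rho was 0.24 and 0.23 in KO vehicle and 0.11, 0.02 and 0.07 in WT vehicle libraries. KO treated 257 thus had the sign of the WT treated libraries. Of its reads, 30.4% were assigned to no counted feature, close to the 28.7% and 28.8% of WT vehicle 240 and 265. Whether such reads lay in introns or outside genes is not given. The remaining libraries had 5.98% to 18.8%. Of the sorting markers, Kit ran from 20.5 to 243 CPM (counts scaled to the library size, corrected by TMM) in KO treated, 20.5 to 50.7 in WT treated, 159 to 167 in KO vehicle and 73.9 to 102 in WT vehicle libraries. Ly6a ran from 29.7 to 159, 70.0 to 433, 21.3 to 44.8 and 1.11 to 61.5 CPM, and Cd48 from 191 to 578, 600 to 900, 278 to 323 and 184 to 464 CPM, in the same order. Cd34 and Flt3 had counts in all 11 libraries, and Slamf1 was at 0 in all 3 WT vehicle libraries and 1 KO treated library. Summed erythroid markers (13 genes) ran from 22502 to 109365 CPM in KO treated, 285 to 672 in WT treated, 472 to 17705 in KO vehicle and 158 to 1167 in WT vehicle libraries. Summed granulocyte markers (12 genes) ran from 10524 to 34859 CPM, 31197 to 156307, 39289 to 61832 and 37635 to 97191 in the same groups. Summed lymphoid markers (8 genes) ran from 321 to 1284, 1044 to 1788, 863 to 872 and 507 to 757 CPM in KO treated, WT treated, KO vehicle and WT vehicle libraries. Nkg7 alone averaged 651 CPM over the KO treated and 1264 over the WT treated libraries, most of the lymphoid sum in both. Cd79b averaged 44.1 and 79.5 CPM there, and Cd3e and Cd3d 3.15 CPM or less. In each WT vehicle library 5 of the 8 lymphoid genes were at 0. Stromal and endothelial markers (10 genes) were summed too. In the group order of the lymphoid sums they ran from 59.5 to 107, 31.8 to 57.2, 71.8 to 155 and 64.0 to 85.4 CPM. Of these genes, Pecam1 alone had means of 50.5 CPM in KO treated, 24.5 in WT treated and 54.9 in WT vehicle libraries. Cdh5 was at 3.6 CPM or less in all libraries. The part of any of these cell types in the results below was not tested. In bulk RNA, fewer cells of a type and less RNA per cell cannot be told apart.

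Per kilobase of the principal transcript, Top2a had the highest level of the 7 genes in 10 of 11 libraries (Top3b in WT vehicle 265), and Top3a the lowest in 10 of 11 (Tdp2 in WT vehicle 253). In KO treated libraries the mean levels in CPM per kb were 81.8 ± 9.81 for Top2a, 48.7 ± 23.2 for Top1, 25.9 ± 7.27 for Top3b, 23.6 ± 4.69 for Tdp2, 21.0 ± 8.11 for Tdp1, 18.2 ± 8.96 for Top2b and 7.27 ± 4.33 for Top3a (SD, n = 3). Among neighbours in this order, Top3b, Tdp2, Tdp1 and Top2b differed by less than the larger of their SDs, as did Top1 and Top3b through the wide spread of Top1. In WT treated libraries they were 46.7 ± 6.19 for Top2a, 43.3 ± 8.27 for Top1, 33.1 ± 11.1 for Tdp2, 21.1 ± 8.91 for Tdp1, 19.2 ± 1.5 for Top3b, 7.02 ± 1.08 for Top2b and 2.41 ± 0.107 for Top3a (SD, n = 3). Here Top2a and Top1 were within that spread of each other, as were Top1 and Tdp2, and Tdp1 and Top3b. In KO vehicle libraries the order was Top2a at 49.1 ± 4.90, Top3b at 37.7 ± 5.70, Tdp1 at 28.7 ± 4.54, Top1 at 26.8 ± 0.915, Tdp2 at 25.4 ± 5.79, Top2b at 12.6 ± 1.45 and Top3a at 8.06 ± 1.61 (SD, n = 2), with Tdp1, Top1 and Tdp2 within their spread. In WT vehicle libraries it was Top2a at 58.3 ± 14.5, Top1 at 42.1 ± 9.60, Top3b at 38.4 ± 9.87, Tdp1 at 20.7 ± 2.42, Top2b at 13.2 ± 1.80, Tdp2 at 12.6 ± 10.8 and Top3a at 8.53 ± 3.97 (SD, n = 3), with Top1 and Top3b within their spread, and Tdp2 within its own wide spread of both Top2b and Top3a. Per kilobase of coding sequence, which leaves out untranslated ends, Top2a was highest in 5 of 11 libraries and Top1 in 5. The place of Top2b moved too. In KO treated libraries it had 38.8 ± 19.1 CPM per coding kb, against 30.8 ± 8.64 for Top3b and 23.4 ± 9.04 for Tdp1. In WT vehicle libraries Top2b had 28.2 ± 3.84, against 23.1 ± 2.7 for Tdp1. In WT treated and KO vehicle libraries only Top3a was below Top2b by either length. The order thus depends on the length used.

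**Figure D1:**
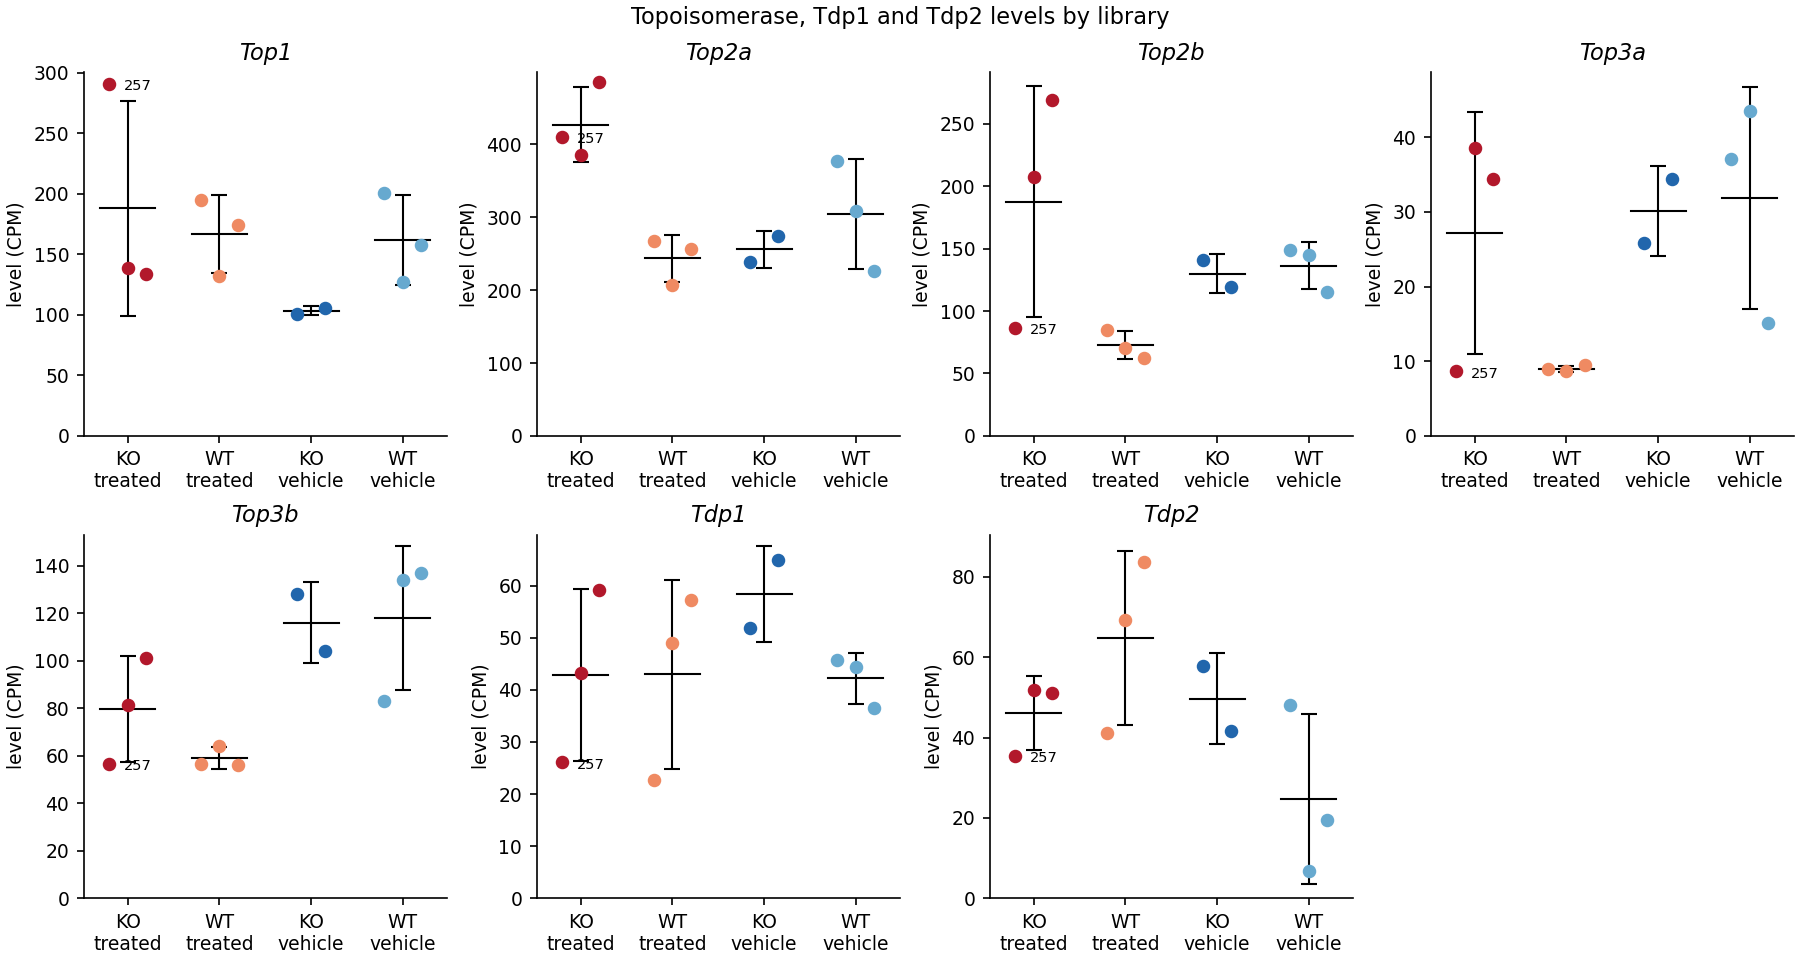
Level of each gene (CPM, vertical axis from 0) in each library, by group, with KO treated 257 labelled; the horizontal bar is the group mean and the error bar its SD (n = 3, and 2 for KO vehicle). Every KO treated library lies above every WT treated library for Top2a (386 to 485 against 207 to 268 CPM), and Top3a in KO treated 257 (8.64 CPM) lies with the WT treated libraries.

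Of the type II enzymes, Top2a, which separates the copied chromosomes at division, was at its highest in KO treated libraries. It had 410, 386 and 485 CPM in KO treated 257, 263 and 276, against 268, 207 and 256 CPM in WT treated 252, 262 and 266. It had 238 and 274 CPM in KO vehicle 249 and 275, against 377, 309 and 226 CPM in WT vehicle 240, 253 and 265. All 3 KO treated libraries lay above all 3 WT treated and both KO vehicle libraries, while treated and vehicle libraries of the WT niche overlapped. The log2 fold change of KO treated over WT treated was 0.81 ± 0.28 (SE; 95% interval 0.20 to 1.42) with an adjusted p of 0.428 by edgeR's quasi-likelihood test. That of KO vehicle over WT vehicle was -0.25 ± 0.31 (adjusted p = 0.946 by the same edgeR test). Treated over vehicle gave 0.74 ± 0.32 in the KO niche and -0.32 ± 0.28 in the WT niche (adjusted p = 1 and 0.572, edgeR). The niche difference was 1.05 ± 0.42 larger in treated than in vehicle hosts (interval 0.13 to 1.98, edgeR adjusted p = 0.767). With the trend on transcript length removed, Top2a in KO treated over WT treated was 0.22 ± 0.31, and -0.01 ± 0.31 with KO treated 257 also left out, an alternative chosen after seeing the data. With limma voom it was 0.82 ± 0.19 and passed (adjusted p = 0.00701), in a comparison where voom called 4375 of 16639 genes. Top2a did not pass there with DESeq2 (0.79 ± 0.29, adjusted p = 0.0969) or with edgeR without KO treated 257 (0.83 ± 0.25, adjusted p = 0.0709).

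Top2b, the type II enzyme that also serves transcription in resting cells, was lowest in WT treated libraries. It had 86.8, 207 and 269 CPM in KO treated libraries, against 84.6, 70.7 and 62.4 CPM in WT treated libraries (library order as above, here and below). It had 141 and 119 CPM in KO vehicle libraries, against 149, 145 and 115 CPM in WT vehicle libraries. KO treated 263 and 276 had the highest levels and all 3 WT treated libraries the lowest; KO treated 257 lay just above them. KO treated over WT treated gave a log2 fold change of 1.37 ± 0.38 (interval 0.54 to 2.20, edgeR adjusted p = 0.383), and KO vehicle over WT vehicle -0.07 ± 0.42 (interval -0.98 to 0.84, edgeR adjusted p = 1). WT treated over WT vehicle gave -0.91 ± 0.37 (edgeR adjusted p = 0.24), with all WT treated below all WT vehicle libraries, and KO treated over KO vehicle 0.53 ± 0.42 (edgeR adjusted p = 1). The interaction was 1.44 ± 0.56 (interval 0.20 to 2.67, edgeR adjusted p = 0.767). Without KO treated 257, Top2b passed in KO treated over WT treated (1.71 ± 0.23, edgeR adjusted p = 0.00886) and in WT treated over WT vehicle (-0.91 ± 0.21, edgeR adjusted p = 0.0372), the second through a smaller estimate of spread. It also passed between the treated niches with DESeq2 (1.33, adjusted p = 0.0381) and limma voom with quality weights (1.52, adjusted p = 0.00164). With the length trend removed it was 0.78 ± 0.37 (edgeR adjusted p = 1), and with 257 also left out 1.08 ± 0.31 (edgeR adjusted p = 0.248). The difference of WT treated over WT vehicle did not pass with DESeq2 (-0.93, adjusted p = 0.126) or limma voom (-0.90 ± 0.30, adjusted p = 0.139). Nor did it pass with the length trend removed (-1.05 ± 0.37, edgeR adjusted p = 0.201), where the median of all genes was -0.30.

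The ratio of Top2a to Top2b counts set the type II genes against each other within a library. It was 4.73, 1.86 and 1.80 in KO treated libraries, against 3.17, 2.93 and 4.10 in WT treated libraries. It was 1.69 and 2.30 in KO vehicle libraries, against 2.54, 2.13 and 1.96 in WT vehicle libraries. The 4 libraries with a negative length rho, KO treated 257 and the WT treated 3, had the 4 highest ratios. The principal transcripts are 5221 nt for Top2a and 10335 nt for Top2b, so a shift of a library toward shorter transcripts and a shift toward Top2a cannot be told apart in this ratio.

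**Figure D2:**
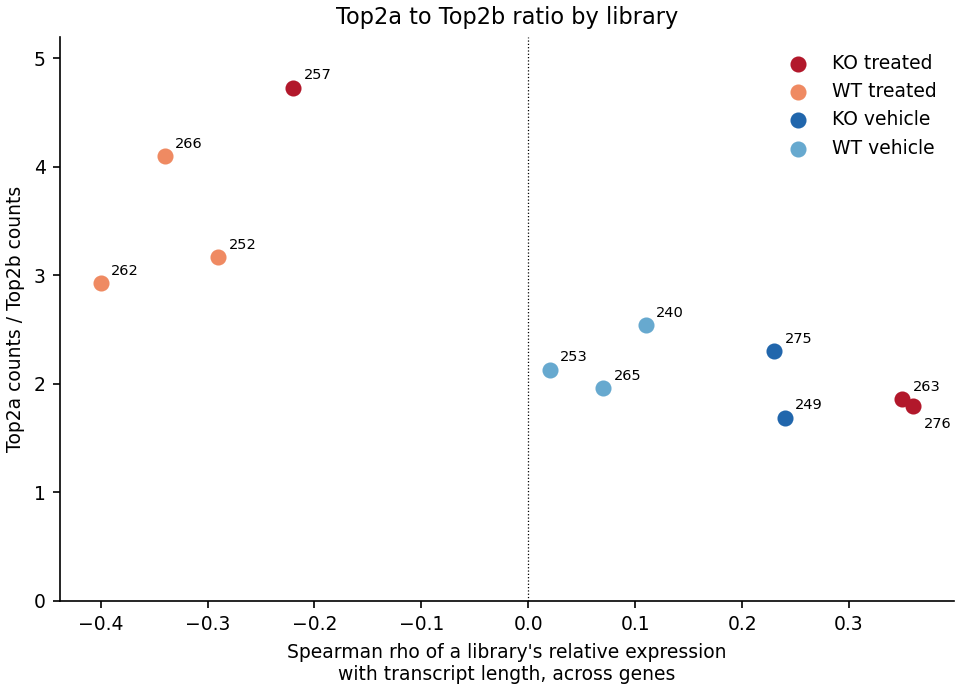
Ratio of Top2a to Top2b counts (vertical axis from 0) against the Spearman rho of a library's relative expression with transcript length across genes (horizontal axis), 1 point per library with its number, coloured by group. The 4 libraries left of 0 have ratios of 2.93 to 4.73 and the 7 right of 0 ratios of 1.69 to 2.54.

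Of the type I enzymes, Top1, which relaxes DNA ahead of copying and transcription, was lowest in KO vehicle libraries. It had 291, 139 and 134 CPM in KO treated libraries, against 195, 132 and 174 CPM in WT treated libraries. It had 101 and 106 CPM in KO vehicle libraries, against 201, 127 and 158 CPM in WT vehicle libraries. KO treated 257 stood above the other 10 libraries, the treated niches overlapped, and both KO vehicle libraries lay below all the others. KO treated over WT treated was 0.17 ± 0.35 (interval -0.59 to 0.93, edgeR adjusted p = 0.92); it was -0.30 ± 0.25 without KO treated 257 and -0.18 ± 0.44 with the length trend removed. KO vehicle over WT vehicle was -0.65 ± 0.40 (interval -1.52 to 0.22, edgeR adjusted p = 0.785), and WT treated over WT vehicle 0.04 ± 0.35 (edgeR adjusted p = 0.964). KO treated over KO vehicle was 0.86 ± 0.40 (interval -0.01 to 1.73, edgeR adjusted p = 1), or 0.40 ± 0.27 without KO treated 257. The interaction was 0.82 ± 0.53 (edgeR adjusted p = 0.798).

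Tdp1, which frees DNA ends of Top1, had means close to each other in 3 groups. It had 26.1, 43.2 and 59.1 CPM in KO treated libraries, against 22.6, 49.1 and 57.3 CPM in WT treated libraries. It had 51.9 and 64.9 CPM in KO vehicle libraries, against 45.7, 44.3 and 36.6 CPM in WT vehicle libraries. The treated libraries spread more widely than the vehicle libraries in either niche, and both KO vehicle libraries lay above all WT vehicle libraries. KO treated over WT treated was -0.01 ± 0.41 (interval -0.89 to 0.88, edgeR adjusted p = 0.998) and KO vehicle over WT vehicle 0.47 ± 0.45 (interval -0.52 to 1.45, edgeR adjusted p = 0.908). Treated over vehicle was -0.45 ± 0.45 in the KO niche and 0.03 ± 0.41 in the WT niche (adjusted p = 1 and 0.983, edgeR), and the interaction was -0.47 ± 0.61 (edgeR adjusted p = 0.909). Over the 11 libraries Tdp1 and Top1 ran opposite to each other (Pearson r = -0.71 of log2 CPM), given as a description since libraries share depth and length trends.

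Top3a, which with the helicase Blm resolves joined DNA strands after recombination, was low and even in WT treated libraries. It had 8.64, 38.6 and 34.4 CPM in KO treated libraries, against 8.91, 8.67 and 9.45 CPM in WT treated libraries. It had 25.9 and 34.4 CPM in KO vehicle libraries, against 37.1, 43.5 and 15.1 CPM in WT vehicle libraries. KO treated 257 lay with the WT treated libraries, and the other 7 libraries were all higher. KO treated over WT treated was 1.59 ± 0.57 (interval 0.34 to 2.85, edgeR adjusted p = 0.434) and, without KO treated 257, 2.01 ± 0.45, which passed (edgeR adjusted p = 0.0228). It also passed with limma voom (1.98 ± 0.37, adjusted p = 0.00303). WT treated over WT vehicle was -1.83 ± 0.58 (interval -3.09 to -0.56, edgeR adjusted p = 0.178). That difference passed with DESeq2 (-1.84, adjusted p = 0.0266) and with edgeR without KO treated 257 (-1.83 ± 0.41, adjusted p = 0.0354). The second came through a smaller estimate of spread, since 257 is in neither group. With limma voom it did not pass (-1.77 ± 0.54, adjusted p = 0.116). With the length trend removed the 2 differences were 0.96 ± 0.52 and -1.75 ± 0.53 (edgeR adjusted p = 1 and 0.18). The medians of all genes were then 0.03 and -0.30, against 0.10 and 0.09 with the trend kept. KO vehicle over WT vehicle was -0.08 ± 0.63, KO treated over KO vehicle -0.15 ± 0.62 and the interaction 1.68 ± 0.85 (edgeR adjusted p = 1, 1 and 0.767).

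Top3b, which with Tdrd3 acts on RNA as well as DNA, was lower in treated than in vehicle libraries of both niches, and passed in neither. It had 56.5, 81.5 and 101 CPM in KO treated libraries, against 128 and 104 CPM in KO vehicle libraries. It had 56.5, 64.2 and 56.0 CPM in WT treated libraries, against 82.9, 134 and 137 CPM in WT vehicle libraries. In each niche all treated libraries lay below all vehicle libraries, though KO treated 276 was close to KO vehicle 275. Treated over vehicle was -0.54 ± 0.34 in the KO niche (interval -1.29 to 0.20, edgeR adjusted p = 1) and -1.0 ± 0.31 in the WT niche (interval -1.68 to -0.32, edgeR adjusted p = 0.177). The WT difference passed with DESeq2 (-1.02, adjusted p = 0.0341) and with edgeR without KO treated 257 (-1.0 ± 0.24, adjusted p = 0.0429). The second came through a smaller estimate of spread, since 257 is in neither group. The WT difference did not pass with limma voom (-0.79 ± 0.28, adjusted p = 0.156). Nor did it pass with the length trend removed (-1.11 ± 0.34, edgeR adjusted p = 0.181), where the median of all genes was -0.30, against 0.09 with the trend kept. Without WT vehicle 253 and 265, which leaves 240 alone and assumed to vary like the other groups, it was -0.38 ± 0.43. KO treated over WT treated was 0.44 ± 0.31, KO vehicle over WT vehicle -0.02 ± 0.34 and the interaction 0.46 ± 0.46 (edgeR adjusted p = 0.666, 1 and 0.868).

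Tdp2, which frees DNA ends of trapped type II enzymes, had its widest spread in WT vehicle libraries. It had 35.5, 51.9 and 51.0 CPM in KO treated libraries, against 41.2, 69.3 and 83.8 CPM in WT treated libraries. It had 57.7 and 41.7 CPM in KO vehicle libraries, against 48.0, 6.77 and 19.5 CPM in WT vehicle libraries. The 2 lowest values came from WT vehicle 253 and 265, the libraries that stood apart, and every pair of groups compared overlapped. WT treated over WT vehicle was 1.39 ± 0.58 (interval 0.12 to 2.65, edgeR adjusted p = 0.243), or 0.56 ± 0.52 without WT vehicle 253 and 265 and 2.31 ± 0.54 without WT vehicle 240 (edgeR adjusted p = 0.679 and 0.0621). KO vehicle over WT vehicle was 1.0 ± 0.63 (edgeR adjusted p = 0.793), or 0.17 ± 0.53 without 253 and 265 and 1.93 ± 0.56 without 240 (edgeR adjusted p = 0.986 and 0.158). KO treated over WT treated was -0.49 ± 0.57 (interval -1.73 to 0.75, edgeR adjusted p = 0.831), KO treated over KO vehicle -0.11 ± 0.63 (edgeR adjusted p = 1) and the interaction -1.49 ± 0.84 (edgeR adjusted p = 0.773), or -2.42 ± 0.71 without WT vehicle 240 (edgeR adjusted p = 0.242). Between the treated niches the fitted value of Tdp2 was negative, with an interval on both sides of no change. Those of the 2 enzymes it clears, Top2a and Top2b, were positive. With the length trend removed Tdp2 was -0.31 ± 0.50, beside 0.22 ± 0.31 for Top2a and 0.78 ± 0.37 for Top2b. With KO treated 257 also left out the 3 values were -0.14 ± 0.57, -0.01 ± 0.31 and 1.08 ± 0.31. The principal transcript of Tdp2 is 1957 nt, shorter than those of Top2a and Top2b.

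**Figure D3:**
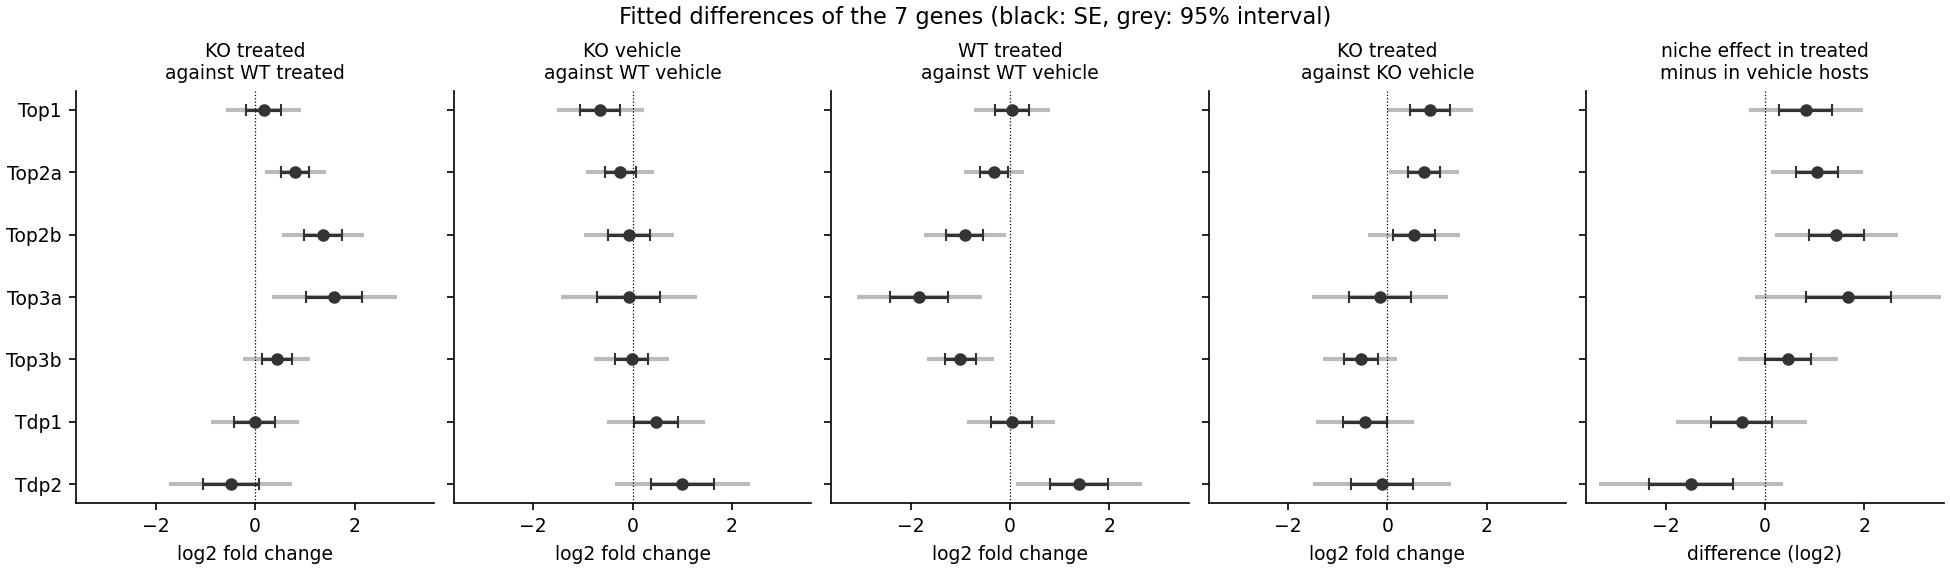
Fitted difference of each gene on the log2 scale (horizontal axis) in the 4 comparisons and, in the last panel, the niche difference in treated minus that in vehicle hosts; points are estimates, black bars SE and grey bars 95% intervals. Intervals lie above 0 for Top2a, Top2b and Top3a between the treated niches, for Tdp2 in WT treated against WT vehicle, for Top2a in KO treated against KO vehicle and for Top2a and Top2b in the last panel, and below 0 for Top2b, Top3a and Top3b in WT treated against WT vehicle.

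No member passed the test in any comparison: at an edgeR adjusted p under 0.05, 0 of 7 members and 0% of the 16639 genes were called in each of the 4 comparisons and in the interaction. DESeq2 called 1 member and 249 genes between the treated niches and 2 members and 1106 genes in WT treated against WT vehicle, and limma voom called 3 members and 4375 genes between the treated niches. Between the treated niches, 3 members (Top2a, Top2b, Top3a) had an unadjusted p under 0.05, against 10.6% of all genes. There 2 members (Top2a, Top2b) were higher with no overlap and 0 lower, against 9.71% and 9.56% of all genes. Between the vehicle niches, 0 members had an unadjusted p under 0.05, against 6.78% of genes, and 1 was higher (Tdp1) and 1 lower (Top1) with no overlap, against 13.2% and 7.47%. For WT treated against WT vehicle, 4 members (Top2b, Top3a, Top3b, Tdp2) had an unadjusted p under 0.05, against 18.2% of genes. There 0 members were higher and 3 (Top2b, Top3a, Top3b) lower with no overlap, against 17.5% and 10.1% of genes. For KO treated against KO vehicle, 1 member (Top2a) had an unadjusted p under 0.05, against 3.68% of genes, and 2 were higher (Top1, Top2a) and 1 lower (Top3b) with no overlap, against 12.3% and 10.1%. In the interaction, 2 members (Top2a, Top2b) had an unadjusted p under 0.05, against 6.31% of genes. The median log2 fold change of the members was 0.44 between the treated niches, -0.07 between the vehicle niches, -0.32 for WT treated over WT vehicle, -0.11 for KO treated over KO vehicle and 0.82 in the interaction. Over all genes tested the medians were 0.10, 0.00, 0.09, 0.12 and 0.11 in the same order. With the length trend removed the members' medians were 0.13, -0.52, -0.49, -0.14 and 0.92. Those of all genes were then 0.03, -0.33, -0.30, -0.02 and 0.34. These comparisons share libraries, WT treated among them, so a low value there enters both the niche and the treatment difference.

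**Figure D4:**
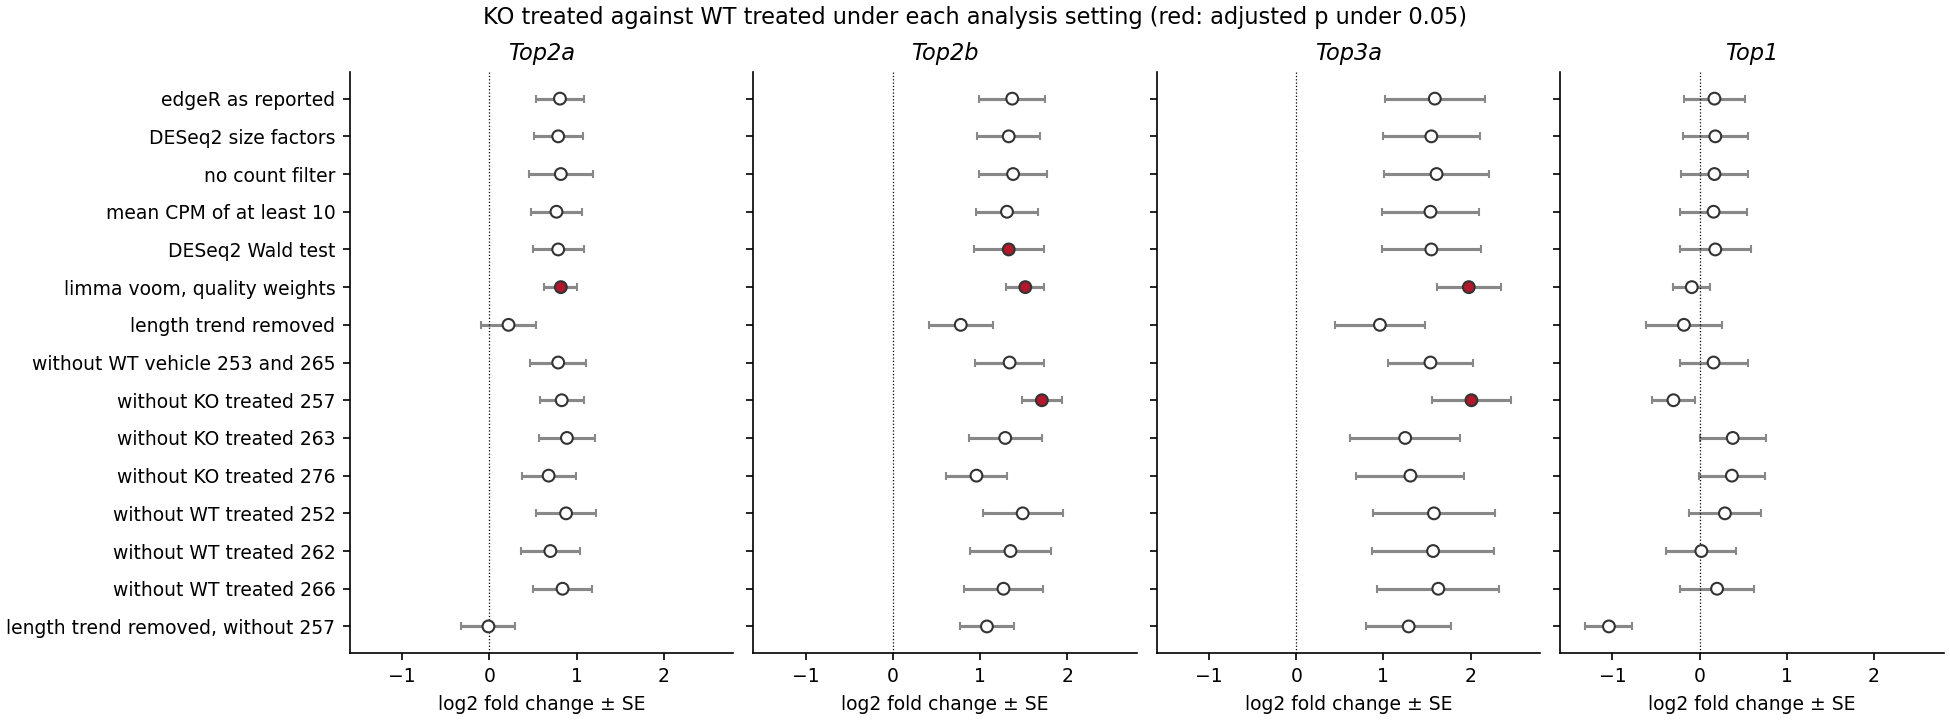
Log2 fold change of KO treated over WT treated for Top2a, Top2b, Top3a and Top1 (horizontal axis, ± SE) under each analysis setting (rows), with settings at an adjusted p under 0.05 in red. Top2b runs from 0.78 to 1.71 and Top3a from 0.96 to 2.01, Top2a reaches -0.01 and Top1 -1.04 in the last row, and each gene's lowest value is in a row with the length trend removed.

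Genes that act with the members were counted in lists, in which 0 genes passed edgeR's test in any comparison. List values here and below came from the fit without removal of the length trend. The length rho was 0.35 and 0.36 in KO treated 263 and 276, against -0.29, -0.40 and -0.34 in WT treated libraries. The part of that trend in the list values was not tested. At an unadjusted p under 0.05 between the treated niches, 2 of 14 genes of type II cleavage repair, 2 of 12 of type I cleavage repair, 2 of 6 partners of Top3a and Top3b, 4 of 15 condensin, cohesin and Ctcf genes, 2 of 18 mitotic genes and 6 of 18 S phase genes were higher, and 1 S phase gene was lower, against 10.6% of all genes tested in either direction. A positive log2 fold change was found for 53.9% of all genes tested between the treated niches and for 52.6% in WT treated over WT vehicle. Of 14 genes that process or rejoin ends left by type II enzymes, 9 had a positive log2 fold change in KO treated over WT treated (median 0.29). Prkdc, the kinase of end joining, had 27.9 ± 14.1 CPM (SD, n = 3) in KO treated libraries, against 11.7 ± 4.13 CPM (n = 3) in WT treated libraries, and Rbbp8, which trims broken ends, 51.4 ± 19.2 and 27.2 ± 1.5 CPM in the same groups. Of 12 genes that repair the single-strand breaks left by Top1, 6 were positive and 6 negative (median -0.11). Within that list Parp1, a sensor of strand breaks, differed by 1.12 ± 0.32 on the log2 scale and Lig3, a ligase, by 2.15 ± 0.72, while Polb, a gap-filling polymerase, differed by -0.81 ± 0.45 (edgeR adjusted p = 0.383, 0.421 and 0.555). In WT treated over WT vehicle the 2 lists had medians of -0.35 (9 of 14 negative) and -0.21 (6 of 12 negative).

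Of 6 partners of Top3a and Top3b, 5 were positive in KO treated over WT treated (median 0.85) and 3 in WT treated over WT vehicle (median -0.22). Tdrd3, the partner of Top3b, had 15.5 ± 4.14 CPM in WT treated libraries, against 49.6 ± 21.8 CPM in WT vehicle libraries, with a log2 fold change of -1.68 ± 0.42 (edgeR adjusted p = 0.172). Blm, the partner of Top3a, had 25.9 ± 8.09 CPM in KO treated libraries, against 14.0 ± 1.66 CPM in WT treated libraries, with a log2 fold change of 0.89 ± 0.47 (edgeR adjusted p = 0.534). Of 15 condensin, cohesin and Ctcf genes, whose products fold chromosomes together with the type II enzymes, 15 were positive between the treated niches (median 0.33). Of these, 0 were higher with no overlap between the groups, against 9.71% of all genes. In WT treated over WT vehicle 13 of the 15 were negative (median -0.38). Ncapd2, a condensin subunit, had 122 ± 61.2 CPM in KO treated, 43.0 ± 18.3 in WT treated and 93.5 ± 25.7 in WT vehicle libraries. The list of related genes outside the members had 3 measured genes. Top1mt, the mitochondrial type I enzyme, had 14.8 ± 2.12 CPM in KO treated libraries, against 15 ± 3.27 CPM in WT treated libraries (log2 fold change -0.02 ± 0.64). Topbp1, a checkpoint protein that is not itself a topoisomerase, had 137 ± 58.5 CPM in KO treated libraries, against 74.1 ± 15.7 CPM in WT treated libraries (0.89 ± 0.34, edgeR adjusted p = 0.434). Spo11, a meiotic relative of the type II enzymes, was at 0.919 CPM or less in KO treated and 0.671 CPM or less in WT treated libraries.

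Top2a is a gene of dividing cells, so 18 other mitotic genes were set beside it. Between the treated niches 11 of them were positive and 7 negative (median 0.17). Mki67, a marker of proliferation, had 248 ± 69.5 CPM in KO treated libraries, against 150 ± 29.3 CPM in WT treated libraries, while Cdk1, the mitotic kinase, had 175 ± 56.4 and 299 ± 59.0 CPM in the same groups. Top2a minus the mean of these genes, in log2 CPM, was 2.04, 1.89 and 1.50 in KO treated libraries, against 1.50, 0.79 and 0.99 in WT treated libraries. It was 1.16 and 1.12 in KO vehicle libraries, against 2.17, 1.04 and 1.92 in WT vehicle libraries. The KO treated values were at or above all WT treated values and above both KO vehicle values, and lay within the range of the WT vehicle values. Of 18 S phase genes, 11 were positive between the treated niches (median 0.61), with Mcm3, of the replicative helicase, at 341 ± 172 CPM in KO treated libraries, against 164 ± 36.5 CPM in WT treated libraries.

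Likeness to each member was measured as Pearson's r of log2 CPM over the 11 libraries, among 8135 genes, as a description in which all points share depth and length trends. Between members it was highest for Top2b with Top3a (0.85), followed by Top3a with Top3b (0.70) and Top2a with Top2b (0.64). Outside the members, Top1 was most like Upf3b (0.980) and Dek (0.978), and Top2a most like Gsk3b (0.908) and Pcf11 (0.889). Top2b was most like Mgea5 (0.978) and Xpo1 (0.969), Top3a most like Kdm3a (0.978) and Cstf2t (0.968), and Top3b most like Abcd3 (0.978) and Med25 (0.974). Tdp1 was most like Prr14 (0.926) and Tdp2 most like Zwint (0.967). Of the mitotic genes, none was among the 5 genes most like Top2a.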

How the data were processed

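The table deposited by the authors gives unnormalized counts of reads, by Ensembl gene ID, in whole numbers; its 5 summary lines were left out of library sizes and tests. RNA was amplified with a SMARTer Ultra Low Input kit and tagged with Nextera XT, per the labels' protocols. The submitters' processing notes name STAR 2.7.9a, Trim Galore 0.6.7, DESeq2, HTSeq (also given as 0.6.7) and build GRCm39; the annotation release and the strand setting are not given in the sources used here. These kits keep no strand, so reads of overlapping genes cannot be assigned with certainty (2.34% to 6.31% of reads were ambiguous). Symbols and lengths came from GENCODE by stable gene ID, with the APPRIS principal transcript as length (52093 and 52147 of 53700 genes matched, and 99.7% of tested genes had a length). The members' identifiers were ENSMUSG00000070544.7 (Top1), ENSMUSG00000020914.18 (Top2a), ENSMUSG00000017485.12 (Top2b), ENSMUSG00000002814.16 (Top3a), ENSMUSG00000022779.17 (Top3b), ENSMUSG00000021177.17 (Tdp1) and ENSMUSG00000035958.4 (Tdp2). RefSeq promoter windows matched 5 of 7 members.

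In R 4.3.3, edgeR 4.0.16 kept genes with filterByExpr, scaled with TMM and fitted the 4 groups of 11 libraries in 1 robust quasi-likelihood model (biological coefficient of variation 0.783). P-values were adjusted by Benjamini-Hochberg over 16639 genes and called under 0.05. SE is the absolute log2 fold change over the square root of F, and 95% intervals use the fit's degrees of freedom. Alternatives were DESeq2 1.42.0 (size factors, Wald test), limma 3.58.1 voom with quality weights, no filter or a mean CPM of at least 10, removal of a lowess trend (span 0.3) on transcript length, and leaving libraries out. The scripts were tested on simulated data. Counts carry no molecular identifiers. Besides the members, the text draws on the 4 genes of smallest p in each list and the 5 genes most like each member with a mean log2 CPM of at least 3. The members and the 12 lists (142 of 144 names matched) were chosen with earlier results of these data known.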

Additional observations from a re-analysis of the deposited data

How the results depend on the processing

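The count of genes called moved with the tool. DESeq2 called 249 genes between the treated niches, 224 between the vehicle niches, 1106 for WT treated over WT vehicle, 23 for KO treated over KO vehicle and 58 in the interaction. It called 1 member (Top2b) in the first of these and 2 (Top3a, Top3b) in WT treated over WT vehicle. With limma voom 4375 genes and 3 members (Top2a, Top2b, Top3a) were called between the treated niches, and 0 elsewhere. With no count filter edgeR called 43 genes between the treated niches, 11 between the vehicle niches and 215 for WT treated over WT vehicle. Leaving out 1 library gave 0 to 1513 genes and 0 to 2 members between the treated niches, and 0 to 1012 genes and 0 to 3 members for WT treated over WT vehicle, with both highest counts reached without KO treated 257. It gave 0 to 85 genes between the vehicle niches and 0 to 1 in the interaction, highest without WT vehicle 240.

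Of the members' log2 fold changes, 42 changed sign under an alternative, all of values whose adjusted p was 0.428 or more. Between the treated niches, Tdp1 (-0.01) was 0.01 with no filter, 0.14 with voom, 0.13 with the length trend removed and 0.39 with 257 also out. Top1 (0.17) was -0.09 with voom, -0.18 with the trend removed and -1.04 with 257 also out, where Top2a was -0.01. Leaving out 1 library gave -0.37 to 0.26 for Tdp1 and -0.30 to 0.38 for Top1. Between the vehicle niches, Top3b (-0.02) was 0.14 with voom and 0.60 without WT vehicle 253 and 265. Leaving out 1 library gave -0.22 to 0.13 for Top3b, -0.41 to 0.20 for Top3a and -0.19 to 0.07 for Top2b. For WT treated over WT vehicle, Top1 (0.04) was -0.18 with voom and -0.16 without 253 and 265, and Tdp1 (0.03) was -0.08 with voom and -0.49 with the trend removed, with or without 257. Leaving out 1 library gave -0.11 to 0.22 for Top1 and -0.24 to 0.33 for Tdp1. For KO treated over KO vehicle, Top3a (-0.15) was 0.22 with voom and 0.12 with the trend and 257 removed, and Tdp2 (-0.11) was 0.05 and 0.03 in the same settings. Leaving out 1 library gave -0.48 to 0.27 for Top3a and -0.37 to 0.12 for Tdp2. In the interaction, Tdp1 (-0.47) was 0.04 with the trend removed and 0.30 with 257 also out, and Top3b (0.46) was -0.20 without 253 and 265. Trend removal moved the median of all genes to 0.03, -0.33, -0.30, -0.02 and 0.34 in the 5 contrasts, in the order of this paragraph. The cause was not tested for these changes. No paired analysis was possible because the groups share no replicate numbers. A depth of 8129032 counts in WT vehicle 265 and groups of 2 or 3 libraries limit the precision. WT vehicle 253 and 265 had 13589 and 14206 genes with a count, against 17207 to 22121 in the other libraries. Mitochondrial genes held 27.4%, 22.1% and 17.2% of gene counts in WT vehicle 240, 253 and 265. They held 3.55%, 2.86% and 15% in WT treated 252, 262 and 266, and 8.05% to 14.2% in the KO libraries. The part of these differences in the results was not tested.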
